A study of Mus musculus with 12 samples.

Results

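Lipases and the inhibitor *Angptl4* were followed in striatal RNA of hemiparkinsonian mice treated with L-DOPA. The set held 6 genes, *Lipg*, *Lpl*, *Lipa*, *Lipe*, *Pnpla2* and *Angptl4*, of 52169 gene symbols in the count table. Their rows were found by symbol and comprised 65 of 189364 transcripts with a symbol. Each gene was read from its transcript with the highest mean level. *Lipg* was selected on its measured CPM, which were known to be high in chronic lesioned libraries, so its values in every comparison with a lesioned library are described without a test. The other 5 were chosen as lipases or lipase inhibitor with results of these data known.

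All mice were C57BL/6J and received 6-OHDA, a toxin that destroys dopamine neurons, in the medial forebrain bundle of the right hemisphere under desipramine, which protects noradrenergic neurons. All were then given L-DOPA at 10 mg/kg with 7.5 mg/kg benserazide, which limits its conversion outside the brain, and striatal punches were taken 1 h after the last injection. The 12 libraries formed 4 groups of 3, the lesioned and the unlesioned striatum after 1 injection (acute) and after 9 daily injections (chronic). No animals without L-DOPA and no sham-operated animals were among these libraries, and the unlesioned striatum of an injected mouse served as the reference. The labels count 12 mice, whereas the study describes both hemispheres of a mouse, so p-values measure the spread between libraries.

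Lipases release fatty acids from lipids, and they differ in where they work. The products of *Lpl* (lipoprotein lipase) and *Lipg* (endothelial lipase) are secreted and act on lipoproteins at the vessel wall, mainly on triglycerides and on the phospholipids of high-density lipoprotein respectively. *Lipa* encodes the acid lipase of lysosomes, *Pnpla2* the enzyme that starts the breakdown of stored triglycerides, and *Lipe* the hormone-sensitive lipase that follows it. *Angptl4* encodes a secreted inhibitor of lipoprotein lipase. In the brain, lipoproteins are made largely by glia and lipid droplets are sparse.

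The deposited values were reads per transcript, with 87695043 to 173116525 counts per library. Reads overlapping several transcripts counted for each of them, so these totals exceed the number of reads. The level of a transcript is its CPM, a count relative to the normalised library total, and a count of 0 would have allowed 0.0171 to 0.0347 CPM (3 counts, counting error only). Medium spiny neuron markers (9 genes) summed to 1798 to 2422 CPM over all libraries, and these cells make up most of the striatum. Cortical glutamatergic markers (6 genes) averaged 19.0 CPM in acute unlesioned and 6.63 CPM in acute lesioned striatum, and 24.7 and 8.97 CPM after chronic L-DOPA. Replicate 2 of the chronic unlesioned group held 480 CPM of choroid plexus markers (5 genes), against 3.68 to 11.6 CPM in the other libraries. RNA was bulk, so fewer cells of a type and less RNA per cell cannot be told apart.

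*Lipg* was highest in the chronic lesioned group. It lies on chromosome 18 of mm9 from 75098976 to 75120917, on the minus strand, with 10 exons and 3787 bases, and no transcript of another symbol overlaps it. In the acute unlesioned striatum the 3 libraries had 0.359, 0.440 and 0.435 CPM. In the acute lesioned striatum they had 0.903, 1.22 and 0.690 CPM, all above the unlesioned ones. The chronic unlesioned libraries had 0.350, 0.251 and 0.336 CPM, all below the acute unlesioned ones. The chronic lesioned libraries had 5.41, 4.41 and 7.45 CPM, and the lowest of these was above every other library. These levels rested on 30 to 119 counts per library in the other 3 groups and on 475 to 817 counts in the chronic lesioned group.

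The fitted log2 fold change of *Lipg* between lesioned and unlesioned striatum was 1.18 (standard error, SE, 0.20) after acute L-DOPA, or 2.27-fold. After chronic L-DOPA it was 4.20 (SE 0.22), or 18.4-fold. Between the lesioned striata, chronic exceeded acute by 2.64 on the log2 scale (SE 0.22), or 6.23-fold. The lesion effect was thus 3.02 larger on the log2 scale after chronic than after acute L-DOPA (SE 0.34), and it stayed between 2.79 and 3.23 when any library was left out. In the unlesioned striatum the log2 fold change of chronic against acute was -0.39 (SE 0.20). The chronic unlesioned libraries are the reference of the chronic lesion effect, so the choice of the gene may bear on this test too. The change did not pass (adjusted p = 0.289 by edgeR's quasi-likelihood test, adjusted after Benjamini-Hochberg), with 0.243 to 0.535 over the alternatives. All 8 transcripts listed for *Lipg* had values between 3.89 and 4.40 for the chronic lesion effect and between 0.84 and 1.34 for the acute one. They share reads and are not separate measurements.

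**Figure D1:**
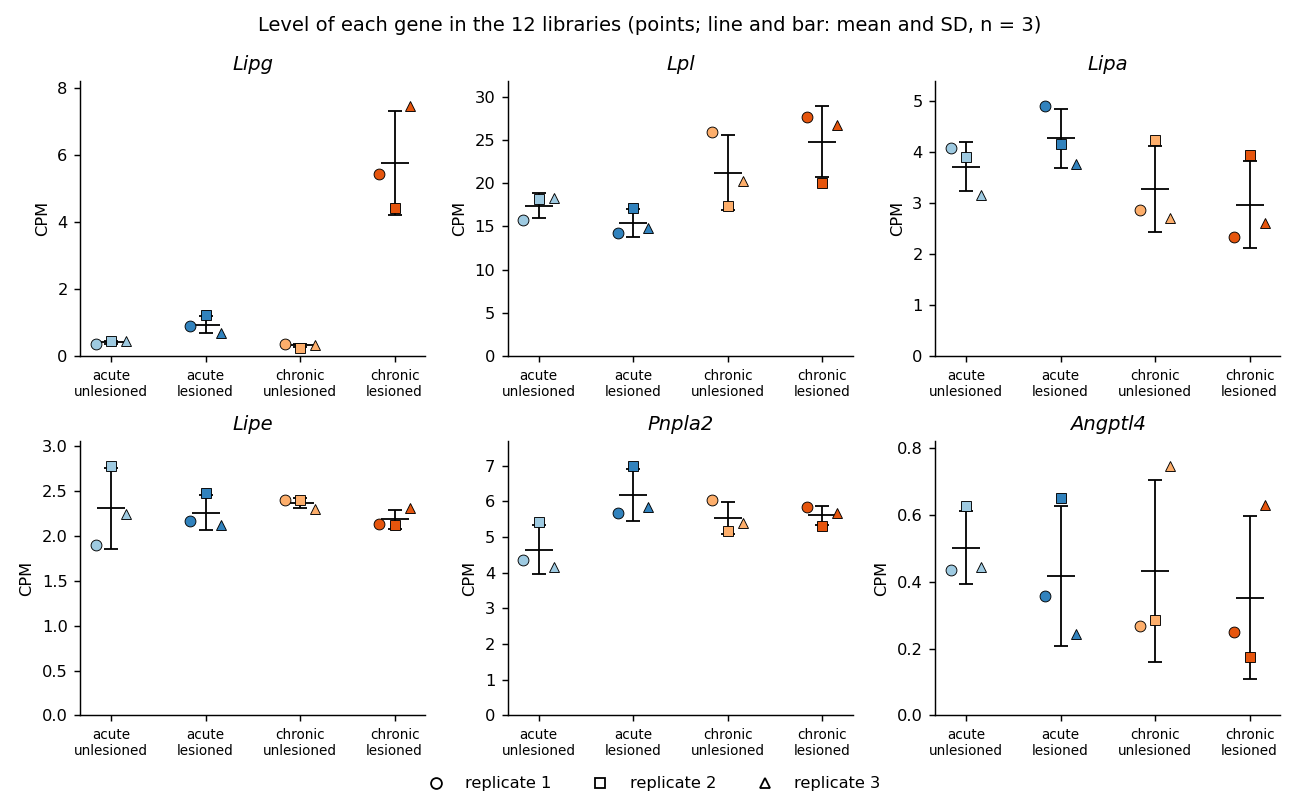
Level of each gene (CPM, linear axes from 0) in the 4 groups. Points are libraries with their replicate number as symbol, and the line and bar give mean and SD of 3 libraries. *Lipg* reaches 4.41 to 7.45 CPM in the chronic lesioned libraries and at most 1.22 CPM elsewhere, whereas *Lipe* stays between 1.89 and 2.78 CPM.

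*Lpl*, the other lipase of the vessel wall, also had a higher level in chronic than in acute lesioned libraries. *Lpl* lies on chromosome 8 from 71404390 to 71430833, on the plus strand, and its top transcript has 4115 bases. The acute lesioned libraries had 14.2, 17.2 and 14.8 CPM and the chronic lesioned ones 27.7, 20.1 and 26.7 CPM, without overlap. The log2 fold change was 0.69 (SE 0.12, adjusted p = 0.00280 by edgeR's quasi-likelihood test and Benjamini-Hochberg), or 1.61-fold, and it passed whichever library was left out. All 16 *Lpl* transcripts lay between 0.55 and 0.72 in this comparison. Of the 5 genes tested here *Lpl* was the only 1 called; among all genes, 12.5% were called higher and 13.1% lower. The clone AK089741 overlaps *Lpl* on the opposite strand with 80 to 175 counts per library, against 1484 to 3017 for *Lpl*, and whether counting used the strand is not given in the sources used here. In the same comparison choroid plexus markers summed to 3.68 to 5.27 CPM in acute lesioned and 8.23 to 11.6 CPM in chronic lesioned libraries, with 2 of 4 tested called higher, and microglia and oligodendrocyte markers were lower, with the values given beside *Lipa*. Their part was not tested.

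In the unlesioned striatum *Lpl* had 15.7, 18.1 and 18.3 CPM after acute and 26.0, 17.4 and 20.3 CPM after chronic L-DOPA. These groups overlap, and the log2 fold change of 0.29 (SE 0.12) did not pass (adjusted p = 0.211). Without replicate 2 of the chronic unlesioned group, the library rich in choroid plexus RNA, it was 0.40 (adjusted p = 0.0246). Lesioned and unlesioned striatum differed by -0.17 after acute L-DOPA (SE 0.08, adjusted p = 0.187). After chronic L-DOPA they differed by 0.23 (SE 0.15, adjusted p = 0.401). Same-numbered striata deviated together, which does not establish that they are pairs. Both values passed in a fit that blocks on replicate number, with -0.17 (adjusted p = 0.0391) and 0.23 (adjusted p = 0.0359). The change of the lesion effect was 0.40 (SE 0.20, adjusted p = 0.287) without and 0.41 (adjusted p = 0.0130) with the block.

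*Angptl4*, the inhibitor, had the largest standard error of the 6 genes in each comparison. It lies on chromosome 17 from 33910695 to 33918520, on the minus strand. The acute unlesioned libraries had 0.433, 0.627 and 0.443 CPM and the acute lesioned ones 0.357, 0.648 and 0.242 CPM. After chronic L-DOPA the unlesioned libraries had 0.267, 0.284 and 0.746 CPM and the lesioned ones 0.251, 0.176 and 0.629 CPM. Replicate 2 was the highest of the acute libraries and replicate 3 of the chronic ones, in both striata. The log2 fold changes were -0.30 for the acute lesion effect and -0.31 for the chronic one, with standard errors of 0.29 and 0.50, and all groups overlapped. None of the 5 comparisons passed for *Angptl4*, with adjusted p from 0.538 to 0.993, and its levels rested on 19 to 111 counts per library. With the replicate number as block the standard errors of both lesion effects were 0.20 and 0.21, and neither passed.

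Of the intracellular lipases, *Pnpla2* was called in 1 comparison and *Lipa* and *Lipe* in 0. The RefSeq promoter table held windows for the 3 genes *Pnpla2*, *Lipe* and *Lipa*. The 250 bases before the start are printed for these intracellular lipases because the lesion effect of *Pnpla2* passed after acute L-DOPA and that of *Lipe* did not, while the level of *Lipa* lay close to the threshold in another comparison. The windows come from the table's build GRCm38.p6, and each printed one matched mm9 once, directly before the start of the top transcript. A second *Lipe* window, chr7:26175132-26175381, lies within the gene, held none of the motifs searched and is not printed. Capitals mark the GC box (GGGCGG) and the CCAAT box, searched on both strands.
Pnpla2, chr7:148640837-148641086, plus strand: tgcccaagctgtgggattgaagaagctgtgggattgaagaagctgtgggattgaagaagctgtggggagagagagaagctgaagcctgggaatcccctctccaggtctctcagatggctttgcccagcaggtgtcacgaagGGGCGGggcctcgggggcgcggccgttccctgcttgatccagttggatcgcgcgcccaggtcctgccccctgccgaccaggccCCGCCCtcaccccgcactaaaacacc
Lipe, chr7:26181007-26181256, minus strand: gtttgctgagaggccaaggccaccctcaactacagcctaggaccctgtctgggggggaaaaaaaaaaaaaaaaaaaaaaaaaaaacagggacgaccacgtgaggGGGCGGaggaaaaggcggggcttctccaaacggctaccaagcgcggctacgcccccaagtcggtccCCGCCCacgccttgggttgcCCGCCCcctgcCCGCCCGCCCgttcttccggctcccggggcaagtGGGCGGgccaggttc
Lipa, chr19:34601965-34602214, minus strand: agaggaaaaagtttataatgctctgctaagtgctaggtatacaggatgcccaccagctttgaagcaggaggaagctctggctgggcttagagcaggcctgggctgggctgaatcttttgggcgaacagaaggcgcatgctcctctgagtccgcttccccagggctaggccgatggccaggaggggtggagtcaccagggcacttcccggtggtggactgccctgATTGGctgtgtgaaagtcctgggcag

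The *Pnpla2* window held 2 GC boxes and no CCAAT box, the printed one of *Lipe* held 6 GC boxes, of which a pair overlap each other, and that of *Lipa* held 1 CCAAT box and no GC box. Among 32851 windows of the same length, 32.7% held a GC box and 33.8% a CCAAT box. The letters of the cAMP response element (TGACGTCA, in 1.55% of all windows), of AP-1 (TGANTCA, 6.75%), of a sterol response element (TCACNCCAC, 1.05%) and of the DR1 element (0.0335%) were not in these 3 windows.

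*Pnpla2* was higher in lesioned than in unlesioned striatum after acute L-DOPA. It lies on chromosome 7 from 148641087 to 148646642, on the plus strand, and its top transcript of 2717 bases is a non-coding variant (NR_028142) with 7833 counts in all, against 7828 for the coding variant NM_001163689. The unlesioned libraries had 4.35, 5.43 and 4.16 CPM and the lesioned ones 5.67, 7.001 and 5.85 CPM, all lesioned above all unlesioned. The log2 fold change was 0.41 (SE 0.11, adjusted p = 0.0292 by edgeR's quasi-likelihood test and Benjamini-Hochberg), or 1.33-fold. Of the 5 genes tested here *Pnpla2* alone passed, while 8.16% of all genes were called higher and 7.16% lower. With the block it was 0.42 (adjusted p = 0.000385), and *Lipa* was then called too (0.21, adjusted p = 0.0456). The call was lost without replicate 1 (0.36, adjusted p = 0.108) or replicate 3 (0.33, adjusted p = 0.116) of the unlesioned or replicate 2 (0.31, adjusted p = 0.128) of the lesioned group. It was also lost on counts summed over all transcripts, where the value was again 0.41. All 15 transcripts of *Pnpla2* had acute values above 0, from 0.32 to 0.42. In the same comparison 5 of 10 microglia, 3 of 7 astrocyte and 2 of 7 oligodendrocyte markers were called higher, with medians of 0.28, 0.22 and 0.32, and 1 of 6 cortical glutamatergic markers was called lower, with a median of -1.39. Of 9 medium spiny neuron markers 4 were called higher and 4 lower, and 1 of 4 ependyma markers was called higher, with a median of 1.3. Their part was not tested.

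After chronic L-DOPA *Pnpla2* had 6.05, 5.16 and 5.39 CPM in unlesioned and 5.85, 5.30 and 5.66 CPM in lesioned striatum. The groups overlapped, with a log2 fold change of 0.02 (SE 0.09, adjusted p = 0.924). The change of the lesion effect from acute to chronic was -0.39 (SE 0.15). It did not pass without the block (adjusted p = 0.182) and passed with it (-0.39, adjusted p = 0.0144).

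*Lipe*, on chromosome 7 from 26164546 to 26181006 on the minus strand, had nearly the same level throughout. The acute libraries had 1.89, 2.78 and 2.24 CPM in unlesioned and 2.17, 2.48 and 2.12 CPM in lesioned striatum. The chronic ones had 2.40, 2.40 and 2.30 CPM and 2.13, 2.12 and 2.31 CPM. Its log2 fold changes lay between -0.11 and 0.04 over the 5 comparisons, with standard errors of 0.10 to 0.17, and none passed (adjusted p of 0.545 to 0.917). Transcripts of 4732471J01Rik overlap *Lipe* on the opposite strand with 8 to 52 counts per transcript and library, against 187 to 386 for *Lipe*.

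*Lipa*, on chromosome 19 from 34566806 to 34601964 on the minus strand, had 4.89, 4.14 and 3.76 CPM in the acute lesioned libraries, the group with the highest mean, and all groups overlapped. The acute unlesioned libraries had 4.06, 3.89 and 3.16 CPM. After chronic L-DOPA the unlesioned libraries had 2.87, 4.23 and 2.70 CPM and the lesioned ones 2.34, 3.93 and 2.61 CPM. Replicate 2 was the highest in both chronic groups. Between the lesioned striata the log2 fold change of chronic against acute was -0.52 (SE 0.17, adjusted p = 0.0507), just outside the threshold. It passed with DESeq2 (adjusted p = 0.0188), with DESeq2's size factors, with no filter, with the block, although the numbers pair no libraries here (-0.55, adjusted p = 0.0493), and when replicate 2 of the chronic lesioned libraries was dropped (-0.78, adjusted p = 0.000955). It did not pass in the other 5 fits with a library left out, where the value nearest to 0 was -0.39 (adjusted p = 0.184), nor on counts summed over transcripts, with a single transcript per gene or in a fit over all 12 libraries. In the unlesioned striatum the same comparison gave -0.19 (SE 0.16, adjusted p = 0.544), and -0.42 (adjusted p = 0.0348) without replicate 2 of the chronic unlesioned group. The clone AK151849 overlaps *Lipa* on the opposite strand with 56 to 200 counts per library, against 205 to 713 for *Lipa*.

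Microglia also express *Lipa*. Their markers (10 genes) summed to 92.2 to 108 CPM in acute lesioned and 58.8 to 74.2 CPM in chronic lesioned striatum, with 8 of 10 called lower. In the unlesioned striatum they summed to 81.8 to 85.7 CPM after acute and 55.6 to 71.7 CPM after chronic L-DOPA, with 3 of 10 called lower. In replicates 1, 2 and 3 the sums were 55.6, 70.5 and 71.7 CPM in chronic unlesioned and 58.8, 72.8 and 74.2 CPM in chronic lesioned striatum. Oligodendrocyte markers (7 genes) summed to 2121 to 3506 CPM in acute lesioned and 1165 to 2106 CPM in chronic lesioned striatum, with 7 of 7 called lower. None of the microglia, astrocyte and oligodendrocyte markers was at 0 in any library. Their part in the result was not tested.

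Over the chronic lesion effect, 0 of the 5 tested genes passed in edgeR, and 0 had an unadjusted p under 0.05 or passed in DESeq2, whereas the block called 1, *Lpl*. Among all genes, 8.46% were called higher and 5.2% lower. In the unlesioned striatum 0 of 6 passed between chronic and acute, 2 (*Lpl* and *Pnpla2*) had an unadjusted p under 0.05 and 0 passed in DESeq2, where 1.07% of all genes were higher and 1.99% lower in edgeR. For the change of the lesion effect 0 of 5 passed, 1 (*Pnpla2*) had an unadjusted p under 0.05 and 0 passed in DESeq2, against 3.53% of all genes higher and 1.56% lower. With the block 2 passed for this change, *Lpl* and *Pnpla2*. The median log2 fold change of the 5 genes was -0.03 for the acute and -0.11 for the chronic lesion effect, against 0.02 and -0.01 over all genes.

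**Figure D2:**
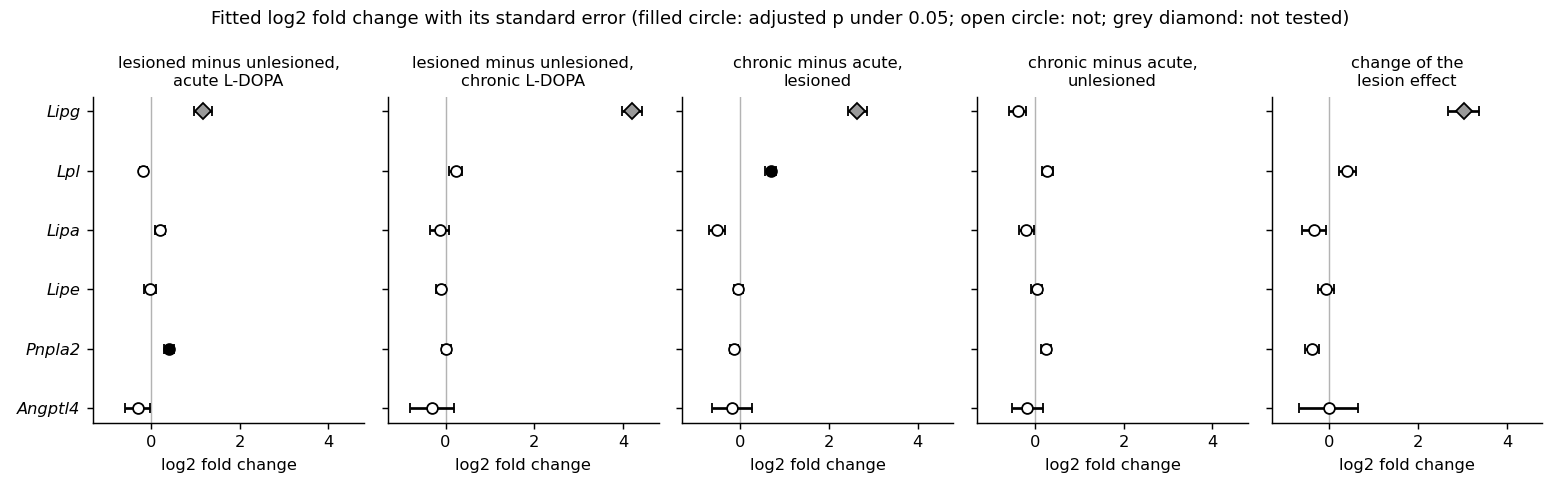
Fitted log2 fold change (x axis) of each gene in the 5 comparisons, with its standard error. Filled circles passed an adjusted p of 0.05, open circles did not, and grey diamonds mark *Lipg* where it was not tested. *Lpl* passes at 0.69 between the lesioned striata and *Pnpla2* at 0.41 for the acute lesion effect, whereas *Lipg* lies at 4.20 for the chronic one.

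Divided by transcript length, the order of the levels differed only through *Lipg* and *Angptl4*. *Lpl* led in every group, with 4.23 ± 0.35 CPM per kb (SD, n = 3) in acute unlesioned and 6.03 ± 1.0 CPM per kb in chronic lesioned striatum. *Pnpla2* came next, with means of 1.71 to 2.27 CPM per kb. *Lipa* followed with means of 0.996 to 1.44 CPM per kb and *Lipe* with 0.679 to 0.734 CPM per kb. In both unlesioned groups *Lipg* was last by its mean. It had 0.109 ± 0.012 CPM per kb after acute and 0.0825 ± 0.014 CPM per kb after chronic L-DOPA, overlapping *Angptl4* in the latter group. In the acute lesioned group it had 0.247 ± 0.070 CPM per kb and overlapped *Angptl4*, the lowest there. In the chronic lesioned group its rank was 3, with 1.52 ± 0.41 CPM per kb, and its libraries overlapped those of *Pnpla2* above and *Lipa* below. *Angptl4* averaged 0.115 to 0.164 CPM per kb. Its top clone has 3053 bases, whereas the RefSeq transcript NM_020581 has 1903 bases and 634 counts in all against its 635.

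**Figure D3:**
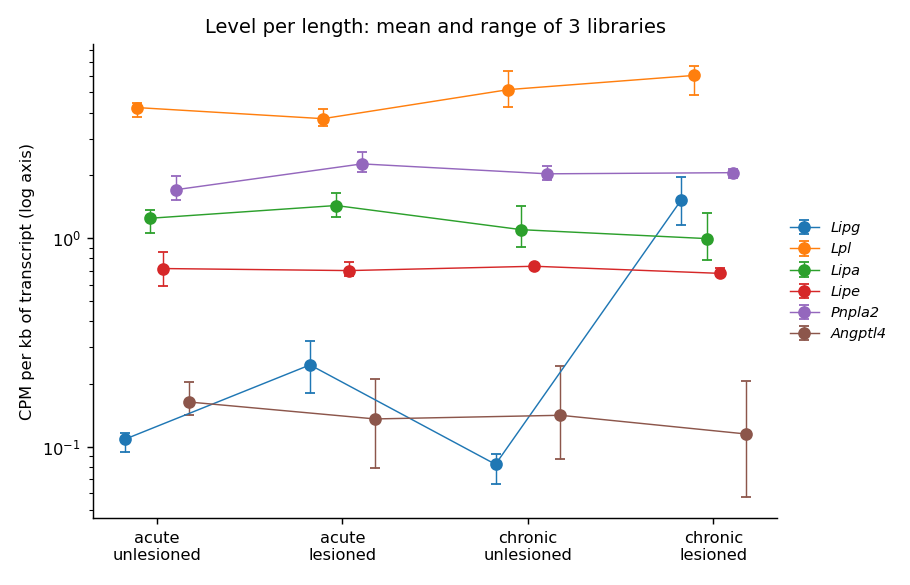
Level per kb of transcript (log axis) in the 4 groups, with points at the mean and bars over the range of 3 libraries. *Lipg* moves from 0.0825 CPM per kb in chronic unlesioned to 1.52 CPM per kb in chronic lesioned striatum, while *Lpl* stays above every other gene.

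The genes whose pattern was most like that of *Lipg* were found by the root mean square difference of log2(CPM + 0.1) over the 12 libraries, each gene centred on its mean, among 12796 genes of at least 1 CPM. They were *Amigo3* (0.275), a neuronal adhesion molecule, *Dusp5* (0.338), a phosphatase of Erk, *Gpr3* (0.383), a receptor that raises cAMP, *Rasl11a* (0.423), a small GTPase, and *Pim1* (0.437), a kinase. The median difference over all genes was 1.53. *Dusp5* had 3.35 to 4.22 CPM in acute unlesioned, 7.39 to 9.80 in acute lesioned, 2.59 to 3.39 in chronic unlesioned and 61.7 to 73.5 CPM in chronic lesioned libraries. *Amigo3* had 0.634 to 0.765, 1.01 to 1.39, 0.401 to 0.565 and 8.03 to 9.41 CPM in the same order. In *Amigo3*, as in *Lipg*, the chronic unlesioned libraries all lay below the acute unlesioned ones, whereas those of *Dusp5* overlapped. With 1 CPM in place of 0.1 as the added constant only 1 of the 5, *Amigo3*, stayed among the 5.

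**Figure D4:**
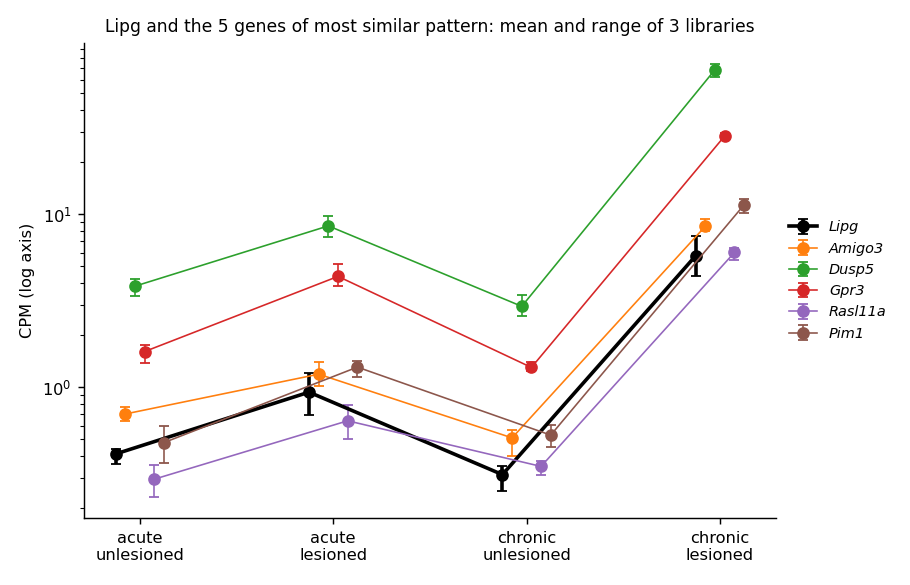
CPM (log axis) of *Lipg* (thick line) and of the 5 genes of most similar pattern in the 4 groups, with points at the mean and bars over the range of 3 libraries. Each was chosen for this likeness, and each is highest in the chronic lesioned group, from 5.76 CPM for *Lipg* to 68.5 CPM for *Dusp5*.

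Within 200 kb of *Lipg* lay 10 genes, of which 6 could be tested. *Myo5b*, a myosin motor, was higher in lesioned than unlesioned striatum after chronic L-DOPA (log2 fold change 0.41, standard error 0.10, adjusted p = 0.0264) and its lesion effect changed by 0.49 (adjusted p = 0.0374). In the lesioned striatum *Myo5b* was higher after chronic than acute L-DOPA (0.65, adjusted p = 0.000643). BC031181 was higher in lesioned striatum after acute (0.45, adjusted p = 0.00124) and chronic L-DOPA (0.38, adjusted p = 0.00971). *Acaa2*, a thiolase of fatty acid oxidation, was lower after chronic than acute L-DOPA in the lesioned striatum (-0.34, adjusted p = 0.0168). *Dym* passed in none of the 5 comparisons (adjusted p of 0.344 to 0.834). Of the 6 tested, 1 was called higher for the acute and 2 for the chronic lesion effect, and 0 lower. Among all genes, 8.16% and 8.46% were called higher and 7.16% and 5.2% lower. Between the lesioned striata 1 was higher and 1 lower, against 12.5% and 13.1% of all genes. The change of the lesion effect also had 1 higher and 1 lower, against 3.53% and 1.56%.

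Other genes that handle lipids were taken from 7 lists with 95 genes. After acute L-DOPA 76 could be tested, 12 were higher (15.8%) and 2 lower (2.63%) in the lesioned striatum, against 8.16% and 7.16% of all genes, with a median log2 fold change of 0.16 against 0.02 over all genes. With the block, 26 were higher and 4 lower, and 8 were called without replicate 3 of the acute unlesioned and 9 without replicate 2 of the acute lesioned group. Among the proteins that mature or carry lipoprotein lipase, 1 of 9 was higher, *Lmf2*. Its value was 0.40 (SE 0.09, adjusted p = 0.0120), and 0.0514 was the highest adjusted p with a library left out. Of 14 lipoprotein genes 4 were higher. *Apoe*, the main apolipoprotein of the brain, rose from 238 ± 16 to 335 ± 7.4 CPM (SD, n = 3), by 0.49 on the log2 scale (SE 0.07, adjusted p = 0.000514). *Clu*, which encodes the apolipoprotein clusterin, rose by 0.56 (SE 0.08, adjusted p = 0.000590). Of 14 lysosomal genes 4 were higher, among them the protease *Ctsd*, by 0.31 (SE 0.06, adjusted p = 0.00636). *Dagla*, which makes an endocannabinoid, fell by 0.48 on the log2 scale (SE 0.09, adjusted p = 0.00560). Astrocyte markers summed to 636 to 692 CPM in acute unlesioned and 707 to 888 CPM in acute lesioned striatum, with 3 of 7 called higher. Microglia markers summed to 81.8 to 85.7 and 92.2 to 108 CPM, with 5 of 10 called higher, and 2 of 7 oligodendrocyte markers were called higher. Of 6 cortical glutamatergic markers 1 was called lower, with a median of -1.39. Of 9 medium spiny neuron markers 4 were called higher and 4 lower, and 1 of 4 ependyma markers was called higher. Their part in these values was not tested.

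After chronic L-DOPA 10 of 75 were higher (13.3%) and 2 lower (2.67%) in the lesioned striatum, against 8.46% and 5.2% of all genes, and 14 and 5 were with the block. The median was 0.04 against -0.01 over all genes. *Soat1*, which esterifies cholesterol, rose from 3.25 to 3.78 CPM in unlesioned to 10.7 to 13.9 CPM in lesioned libraries, by 1.82 on the log2 scale (SE 0.11, adjusted p = 2.69e-06). *Furin*, a protease that cleaves secreted lipases, rose by 0.67 (SE 0.09, adjusted p = 0.00111) and was the only 1 of 9 in its list called. Of 18 genes in the list of lipid droplet lipolysis 3 were higher and 1 lower, and the 3 are not enzymes that start the breakdown of stored triglycerides. *Dgat2* and *Dgat1*, which make triglycerides, rose by 0.66 (SE 0.10) and 0.60 (SE 0.12). *Abhd12*, a lipase of membrane lysophospholipids and monoacylglycerols, rose by 0.76 (SE 0.08, adjusted p = 0.000210). Each of these 5 passed with any library left out. Astrocyte markers summed to 634 to 723 CPM in chronic unlesioned and 737 to 769 CPM in chronic lesioned libraries, with 1 of 7 called higher. Cortical glutamatergic markers had a median of -1.63, and of the medium spiny neuron markers 2 of 9 were called higher and 1 lower. The part of these cells was not tested. Of 13 relatives of the lipase gene family 4 could be tested, and 0 were called in edgeR, 1 had an unadjusted p under 0.05 and 0 were called in DESeq2.

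Between the lesioned striata, 12 of 76 genes were higher (15.8%) and 19 lower (25.0%) after chronic than after acute L-DOPA, against 12.5% and 13.1% of all genes, so that the share of higher genes was near that of all genes. Leaving out a library gave from 16 genes called, without replicate 1 of the chronic lesioned group, to 42, without its replicate 2, and 17, 18 and 19 were called without replicates 1 and 2 of the acute lesioned and replicate 3 of the chronic lesioned group. *Soat1* (1.30, standard error 0.11), *Abhd12* (0.80, standard error 0.08) and *Furin* (0.76, standard error 0.09) rose, and each passed with any library left out. *Apoe* fell by 0.38 on the log2 scale (SE 0.08, adjusted p = 0.00589) and *Clu* fell by 0.46 (SE 0.08, adjusted p = 0.00327). *Plin3*, a coat protein of lipid droplets, fell by 0.83 (SE 0.18, adjusted p = 0.00781), whereas *Plin4*, another one, was called higher, by 1.32 (SE 0.33). Of the 18 genes in their list 4 were called higher and 3 lower. Microglia and oligodendrocyte markers were lower in the same comparison, as given for *Lipa*. Of the astrocyte markers 3 of 7 were called lower, with a median of -0.28, as were 3 of 5 markers of mural cells and 4 of 5 of blood, whereas 2 of 4 choroid plexus markers were called higher, with a median of 1.43. The part of these cells was not tested. In the unlesioned striatum 3 of 76 were higher (3.95%) and 0 lower, against 1.07% and 1.99% of all genes; 15 were called when replicate 2 of the chronic unlesioned group was left out, 1 when its replicate 3 was and 0 when any other library was.

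**Figure D5:**
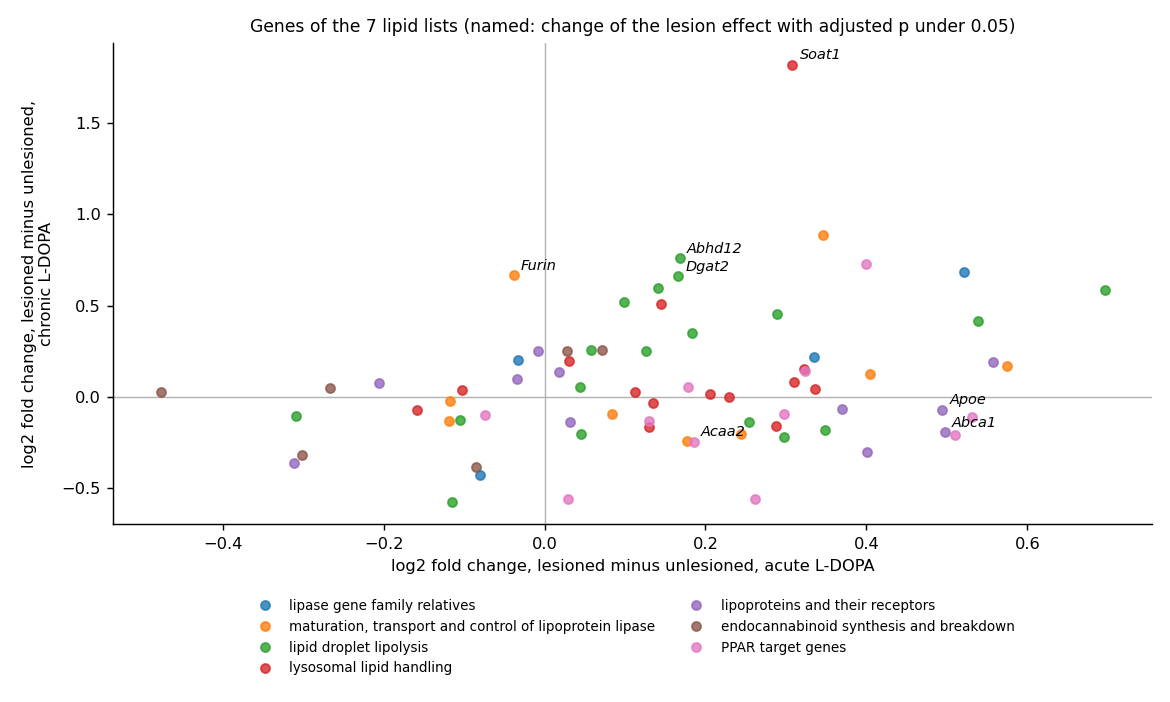
Log2 fold change between lesioned and unlesioned striatum after acute (x axis) and chronic L-DOPA (y axis) of 73 genes in the 7 lipid lists, coloured by list. The 7 named genes had a change of the lesion effect past an adjusted p of 0.05, with *Soat1* at 1.82 and *Abhd12* at 0.76 after chronic L-DOPA.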

How the data were processed

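Libraries (TruSeq) were read on a Genome Analyzer II and mapped by the authors to mm9 with the Genomatix Mining Station, and raw counts per transcript were deposited; the tool's version and its use of strand or multiply mapped reads are not given in the sources used here. The table held 189660 transcripts, of which 296 had no symbol and held 0.0485% of the counts; these were left out. A further 48 columns of per-sample values and 3 tables with the authors' own DESeq fold changes and p-values were not used.

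The counts were fitted over all transcripts with edgeR 4.0.16 (R 4.3.3, limma 3.58.1): filterByExpr by group, TMM, glmQLFit and glmQLFTest, with Benjamini-Hochberg adjustment over all transcripts tested and a threshold of 0.05. The study's own test was DESeq on triplicates. Each comparison of 2 groups used its 6 libraries, and the change of the lesion effect was an interaction over all 12. Shares of all genes refer to 1 transcript a gene. The self-test on simulated data was passed. Alternatives were DESeq2 1.42.0, its size factors, no filter, a single transcript per gene, counts summed over transcripts, a fit over all 12 libraries, the replicate block and leaving out each library; for the lipid lists they were added after seeing the data.

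The members and lists were chosen with earlier results of these data known. Named besides the members were up to 4 called genes of at least 1 CPM per list and direction, and genes near, overlapping or most like them; some genes of the lists count in the totals and are not reported here by name. Deviations of same-numbered lesioned and unlesioned libraries correlated at 0.473, 0.466 and 0.386 (acute) and 0.515, 0.571 and 0.158 (chronic) over 12796 genes. All were above 0.1, the limit set for taking the numbers as pairs in the lesion contrasts. Between chronic and acute libraries, where the numbers pair nothing, replicate 3 correlated at 0.233 (lesioned) and 0.142 (unlesioned). That limit therefore does not establish pairing, and results with the block rest on it as an assumption. No pair of replicates was a copy (chi-square per degree of freedom 5.41 to 19.7). Promoter windows came from RefSeq (GRCm38.p6), matched to NCBIM37, the assembly of mm9.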

Additional observations from a re-analysis of the deposited data

Results flagged for a closer look

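The lesion effect differed between acute and chronic L-DOPA for 7 named genes of the lipid lists, by the interaction test (edgeR's quasi-likelihood test, adjusted after Benjamini-Hochberg, 3 libraries per group). The log2 change was 1.52 for *Soat1* (adjusted p = 2.85e-05), 0.71 for *Furin* (adjusted p = 0.00366) and 0.59 for *Abhd12* (adjusted p = 0.00185). It was -0.56 for *Apoe* (adjusted p = 0.00283). Each of these 4 passed with any 1 of the 12 libraries left out. The values of 0.50 for *Dgat2* (adjusted p = 0.0497), -0.69 for *Abca1* (adjusted p = 0.0476) and -0.43 for *Acaa2* (adjusted p = 0.0279) lost the call without 10, 10 and 8 of the 12 libraries in turn. *Abca1* had 6.59 ± 0.64 CPM in unlesioned and 9.25 ± 1.6 CPM in lesioned striatum after acute L-DOPA, and 9.85 ± 1.8 CPM in unlesioned and 8.61 ± 0.32 CPM in lesioned striatum after chronic L-DOPA (SD, n = 3).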

How the results depend on the processing

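The values of *Lipg* stayed within the spread between replicates under every alternative run. When a library was left out, they were 0.97 to 1.35 for the acute lesion effect, 3.97 to 4.37 for the chronic one, 2.40 to 2.85 between the lesioned and -0.48 to -0.26 between the unlesioned striata.

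Of the other genes, 1 was called for the acute lesion effect, 0 on summed counts, 3 with the replicate block, and 0 to 1 with a library left out. For the chronic lesion effect and its change, where 0 were called, the block gave 1 and 2. Between the lesioned striata 1 was called, against 2 with DESeq2's size factors, DESeq2, no filter or the block, and 1 to 2 with a library left out. Between the unlesioned striata it was 0, and 0 to 2 with a library left out. The block changed no other call of a lipase or *Angptl4*.

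Of the lipid lists, 14 genes were called for the acute lesion effect, 30 with the block, 7 in a fit over all 12 libraries and 8 to 18 with a library left out. For the chronic lesion effect 12 were called, 19 with the block. For its change 9 were called, 20 with the block and 6 to 14 with a library left out. Between the lesioned striata 31 were called, and 16 to 42 with a library left out. Between the unlesioned striata 3 were called, 5 with no filter, 5 in a fit over all 12 libraries, 0 on summed counts and 0 to 15 with a library left out. Where a cause is not named it was not tested. No value changed direction with a call. The lowest counts were those of *Angptl4* and *Lipg*, with 26 to 119 per library outside the chronic lesioned group. Between chronic and acute striata the replicate numbers pair no libraries, and the block there is only a further setting.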
